A study of Mus musculus with 2 samples.

Results

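The genes described here are 37 genes of DNA replication and mitosis, chosen by symbol from a fixed list out of the 32285 genes in the count files, and all 37 were found. Of these, 14 act in S phase and 23 in mitosis. The study compared lung mesenchymal cells of saline-treated and bleomycin-treated mice. The mice were Lepr-CreERT2;Rosa26-tdtomato animals aged 8 to 10 weeks: a tamoxifen-dependent Cre recombinase made from the leptin receptor gene switches on the red protein tdTomato, which then stays on in the cell and its daughters. Bleomycin is a DNA-damaging drug widely used to produce lung fibrosis in mice. Live tdTomato+ CD45- EpCAM- CD31- cells, which leaves out most blood, epithelial and endothelial cells, were sorted and made into single-cell libraries with the 10x Genomics 3' chemistry. Each treatment had 1 library. No source used here gives the number of mice behind a library, the bleomycin dose, the day of collection or the tamoxifen schedule.

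DNA is copied in S phase, when the MCM helicase opens the double helix and is followed by the clamp Pcna and the polymerases. Mitosis begins when cyclin B and Cdk1 become active, and ends when the anaphase promoting complex marks cyclins and other proteins for destruction. Most of the mitotic messages accumulate only in G2 and mitosis, whereas several replication genes are also used in DNA repair and are made at a low level in resting cells, so that the mitotic genes mark dividing cells more sharply.

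The proximal promoters of 8 of the genes are printed as context for the S-phase and mitotic groups used below. Matches to sequence elements that are known to separate these 2 programmes are marked in them. The promoters come from the RefSeq promoter table (build GRCm38.p6), run 5' to 3' on the gene's strand and end at the last base before the transcription start. Capitals mark every match, on either strand, to the CCAAT box (CCAAT), to the cell cycle homology region or CHR (TTTGAA or TTCGAA), and to an E2F element (TTTCCCGC, TTTGGCGC, TTTCGCGC or TTTGCCGC), and matches that overlap run together. Mcm5 and Mcm6 (helicase subunits), Pclaf (a partner of the Pcna clamp) and Pcna stand for the S-phase genes, and Cdk1, Ccnb2 (cyclin B2), Top2a (topoisomerase II alpha) and Ube2c (a ubiquitin-conjugating enzyme of the anaphase promoting complex) for the mitotic genes.
Mcm5 (chr8:75109259-75109508, plus strand): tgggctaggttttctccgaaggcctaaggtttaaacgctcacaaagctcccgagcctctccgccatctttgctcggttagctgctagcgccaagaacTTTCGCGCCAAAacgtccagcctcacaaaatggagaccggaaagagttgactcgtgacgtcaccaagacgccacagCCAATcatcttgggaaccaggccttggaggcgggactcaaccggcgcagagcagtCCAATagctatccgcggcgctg
Mcm6 (chr1:128359706-128359855, minus strand): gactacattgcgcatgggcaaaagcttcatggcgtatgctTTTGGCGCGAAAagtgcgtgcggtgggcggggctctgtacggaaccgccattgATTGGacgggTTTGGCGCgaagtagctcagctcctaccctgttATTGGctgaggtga
Pclaf (chr9:65890173-65890322, plus strand): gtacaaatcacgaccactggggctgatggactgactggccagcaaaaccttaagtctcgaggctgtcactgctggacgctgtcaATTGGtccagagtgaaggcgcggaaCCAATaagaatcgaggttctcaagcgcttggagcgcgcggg
Pcna (chr2:132253181-132253330, minus strand): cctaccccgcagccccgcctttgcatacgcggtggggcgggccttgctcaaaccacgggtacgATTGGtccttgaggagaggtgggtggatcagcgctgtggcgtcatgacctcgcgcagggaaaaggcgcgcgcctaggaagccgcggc
Cdk1 (chr10:69352913-69353162, minus strand): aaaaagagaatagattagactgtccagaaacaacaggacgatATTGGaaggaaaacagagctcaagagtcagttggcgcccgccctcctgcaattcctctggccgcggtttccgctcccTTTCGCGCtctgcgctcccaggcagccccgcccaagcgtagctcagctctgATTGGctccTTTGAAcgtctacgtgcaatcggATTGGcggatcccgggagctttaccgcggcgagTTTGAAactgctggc
Ccnb2 (chr9:70421555-70421804, minus strand): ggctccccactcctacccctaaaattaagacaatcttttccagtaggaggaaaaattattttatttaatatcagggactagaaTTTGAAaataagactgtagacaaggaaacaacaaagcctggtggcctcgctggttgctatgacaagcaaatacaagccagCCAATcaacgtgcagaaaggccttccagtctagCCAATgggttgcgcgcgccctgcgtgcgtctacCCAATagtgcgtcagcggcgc
Top2a (chr11:99024190-99024439, minus strand): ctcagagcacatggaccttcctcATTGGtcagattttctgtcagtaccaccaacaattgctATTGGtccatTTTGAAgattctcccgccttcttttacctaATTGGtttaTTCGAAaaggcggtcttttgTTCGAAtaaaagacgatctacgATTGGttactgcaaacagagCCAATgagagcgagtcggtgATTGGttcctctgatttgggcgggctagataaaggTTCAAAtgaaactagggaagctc
Ube2c (chr2:164769679-164769928, plus strand): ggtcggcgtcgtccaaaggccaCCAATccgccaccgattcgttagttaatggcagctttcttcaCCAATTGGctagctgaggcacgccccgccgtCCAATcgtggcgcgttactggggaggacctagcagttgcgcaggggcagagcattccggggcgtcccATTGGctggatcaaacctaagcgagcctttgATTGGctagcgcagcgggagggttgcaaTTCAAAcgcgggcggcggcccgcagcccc

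In windows from 250 bases before to 50 bases after the start, the CHR and the CCAAT box occurred together in 15 of the 18 mitotic genes in the table (83.3%), in 2 of the 12 S-phase genes (16.7%) and in 8.61% of all 27025 genes. The E2F letters occurred in 6 of the 12 S-phase genes (50%), in 1 of the 18 mitotic genes (Cdk1) and in 2.61% of all genes. The CCAAT box alone separated the groups less, with 75% of S-phase, 88.9% of mitotic and 41.1% of all genes. It was the only element matched in the printed stretches of Pclaf and Pcna. In Ube2c the CHR began 29 bases before the start, after 6 CCAAT boxes, whereas Top2a held 4 CHR and 6 CCAAT matches. Birc5, Nusap1 and Ccnb1 were the 3 mitotic genes in the table without a CHR match in the window. No promoter was listed for Mcm4, Gins2, Ccna2, Aurkb, Tpx2, Kif20a or Stmn1. A match is only a run of letters and does not show that a factor binds there.

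The saline library held 8396 barcodes and 60937359 unique molecular identifiers (UMIs, counted transcripts), and the bleomycin library 10138 barcodes and 134732429 UMIs, with medians of 6762 and 11662 UMIs per barcode. The libraries shared 25 barcode sequences. After filtering, 8120 saline and 9530 bleomycin cells fell into mesenchymal classes, which were drawn without the 37 genes or their companion lists and named from marker genes: alveolar fibroblast-like (5759 saline, 291 bleomycin), adventitial fibroblast-like (1479, 1256), inflammatory fibroblast-like (100, 4165), fibrotic fibroblast-like (12, 2699), a class that met both the peribronchial fibroblast and the smooth muscle markers (400, 592) and smooth muscle-like (370, 527). The alveolar class joined a cluster led by Slc7a10 and a larger one led by Tpm3-rs7, with Inmt among the leading genes of each. The larger cluster (3008 saline and 197 bleomycin cells) also met the list of interferon-responding cells. Pi16 led the adventitial class. Saa3, Hp and Lcn2 stood near the top of the inflammatory class, below Iglc1, an immunoglobulin light chain gene. Spp1 and Cthrc1 led the fibrotic class and Myh11 the smooth muscle class, which also met the pericyte list. A further 123 saline and 354 bleomycin cells were epithelial-like in spite of the EpCAM gate, led by Scgb1a1, Sftpc and Ager. This cluster also met the macrophage, lymphocyte, neutrophil and endothelial lists, and it serves below as a second population for shares of cells, in which some cells may divide too. The doublet caller marked 66 saline cells (0.790%) and 0 bleomycin cells, so it did not work on the bleomycin library.

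With 1 library per treatment no test of the treatment was possible, and every interval below covers counting error within these 2 libraries only. Levels are CPM, the UMIs of a gene per 1000000 UMIs of all genes, summed over the cells of a class, with exact 95% Poisson intervals. A gene counted as higher or lower when its mean CPM was at least 1, the libraries differed at least 2-fold and the exact 95% interval of the ratio lay clear of 1. Summed over cells, a change in the share of dividing cells and a change in RNA per cell cannot be told apart.

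Over all mesenchymal cells, 29 of the 37 genes were higher in bleomycin, 0 were lower and 8 were neither, against a background of 7.45% higher and 7.76% lower among all 12369 genes tested. The 14 S-phase genes gave 8 of the 29 and the 23 mitotic genes gave 21. The median log2 ratio was 1.91 for the 37 genes and -0.06 for all genes tested. The summed S-phase genes were 1.42-fold apart (95% interval 1.39 to 1.45), with 206 CPM in the saline and 292 CPM in the bleomycin library. The summed mitotic genes were 2.95-fold apart (2.90 to 3.01), with 228 and 674 CPM. A single gene weighed heavily in each sum. Pcna gave 101 of the 206 S-phase CPM in saline and 81.9 of the 292 in bleomycin. Stmn1 gave 110 of the 228 mitotic CPM in saline and 201 of the 674 in bleomycin. Neither gene met the rule. These ratios describe the 2 libraries, since no replicate shows how far saline libraries differ from each other.

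Among the helicase genes, Mcm2 stood at 2.41 CPM (2.03 to 2.84) in saline and 6.37 (5.95 to 6.82) in bleomycin, a ratio of 2.65 (2.21 to 3.19). Mcm5 stood at 2.12 and 6.29 CPM, a ratio of 2.97 (2.46 to 3.61). Mcm3, at 4.07 and 8.21 CPM, lay just inside the 2-fold limit at 2.02, and Mcm6, at 6.07 and 12.1 CPM, just outside it at 1.99. Mcm7 had a ratio of 1.77. Gins2, a subunit of the GINS complex that travels with the helicase, stood at 2.29 and 9.85 CPM, a ratio of 4.30 (3.60 to 5.18). Mcm4 went the other way, from 25.6 CPM in saline to 15.6 in bleomycin, a ratio of 0.611 (0.571 to 0.653), so the 6 subunits of 1 helicase ring did not move together. Mcm4 was the single gene of the 37 to be lower when the limit was set at 1.5-fold.

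At the replication fork, Pclaf had the largest ratio of the 37 genes. It stood at 4.80 CPM (4.25 to 5.39) in saline and 40.5 (39.4 to 41.6) in bleomycin, a ratio of 8.44 (7.48 to 9.54). The gene encodes a small protein that binds Pcna, has the identifier ENSMUSG00000040204 and lies at chr9:65890237-65903266 on the plus strand (GENCODE, GRCm38). Its partner Pcna, the sliding clamp, did not meet the rule: it stood at 101 CPM (98.9 to 104.0) in saline and 81.9 (80.3 to 83.4) in bleomycin, a ratio of 0.807. Lig1, the ligase that joins the fragments of the lagging strand, stood at 10.6 and 14.6 CPM, a ratio of 1.38. The clamp and the ligase therefore stayed within 2-fold while the clamp's partner was 8.44-fold apart.

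The genes of nucleotide supply also divided. Rrm2, the subunit of ribonucleotide reductase made in S phase, stood at 2.97 and 13.5 CPM, a ratio of 4.55 (3.89 to 5.35). Rrm1, the other subunit of the same enzyme, stood at 23.1 and 25.9 CPM, a ratio of 1.12. Thymidine kinase Tk1 (1.53 and 8.30 CPM) had a ratio of 5.44 and thymidylate synthase Tyms (12.1 and 37.1 CPM) a ratio of 3.06. The members of 3 pairs of partners thus differed within these libraries: Rrm2 with Rrm1, Pclaf with Pcna, and Mcm5 with Mcm4.

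All 4 genes of the cyclin and Cdk1 group met the rule. Cdk1, the kinase that starts mitosis, stood at 5.59 CPM in saline and 29.0 in bleomycin, a ratio of 5.18 (4.63 to 5.82). Ccna2 (cyclin A2) had a ratio of 5.65, Ccnb1 (cyclin B1) of 3.89 and Ccnb2 of 2.29. The 4 genes of chromosome structure and the centromere met it too. Mki67, which coats mitotic chromosomes and is the usual marker of cycling cells, stood at 6.39 and 24.8 CPM, a ratio of 3.87 (3.48 to 4.32). Top2a, which untangles sister chromatids, stood at 10.6 and 42.3 CPM, a ratio of 4.00. Cenpa, the histone variant of the centromere, and Cenpf, a kinetochore protein, had ratios of 3.18 and 3.76. As a group these 4 chromosome genes summed to 36.5 CPM in saline and 133 in bleomycin.

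Of the 6 mitotic kinases and chromosome passenger genes 5 met the rule. Birc5 (survivin), a passenger protein, stood at 7.10 CPM (6.44 to 7.82) in saline and 47.5 (46.3 to 48.7) in bleomycin, a ratio of 6.69 (6.06 to 7.40), the second largest of the 37. Its partners in the passenger complex, Aurkb and Cdca8, had ratios of 4.53 and 4.88. Plk1, a kinase of mitotic entry, and Bub1, a kinase of the spindle checkpoint, had ratios of 5.34 and 4.81 from levels of 1.22 and 1.0 CPM in saline. Aurka, the spindle pole kinase, stood at 3.56 and 5.65 CPM, a ratio of 1.59, and did not meet the rule, although Tpx2, its activator on the spindle, had a ratio of 4.14. The sum of the 6 genes was 17.8 CPM in saline and 87.9 in bleomycin.

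Among the 7 spindle genes, Hmmr (4.14 and 19.4 CPM), Kif20a, Kif11, Prc1 and Nusap1 had ratios of 4.69, 4.31, 3.54, 3.23 and 2.74. Kif11 and Kif20a are kinesin motors, Prc1 bundles the microtubules between the separating chromosomes, and Nusap1 and Hmmr bind spindle microtubules. Stmn1, which destabilises microtubules and is also made outside mitosis, stood at 110 CPM (107 to 113) and 201 (199 to 204), a ratio of 1.83, and did not meet the rule. Both genes of the anaphase promoting complex met it. Ube2c stood at 12.7 CPM (11.8 to 13.6) in saline and 67.9 (66.5 to 69.3) in bleomycin, a ratio of 5.36 (4.98 to 5.79), and its gene, ENSMUSG00000001403, lies at chr2:164769898-164778822 on the plus strand. Cdc20, an activator of the complex, stood at 3.58 and 12 CPM, a ratio of 3.35.

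**Figure D1:**
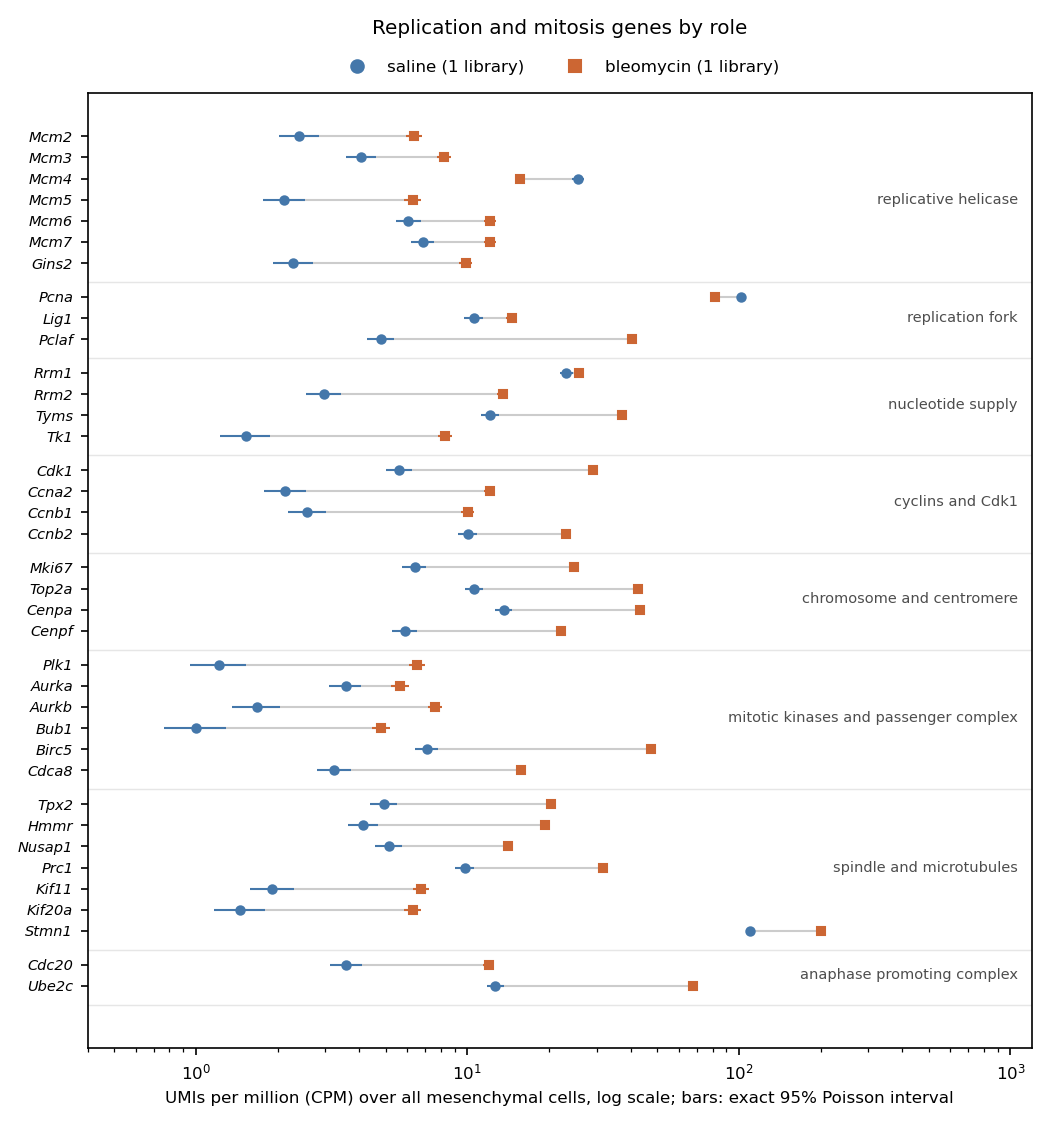
Level of each of the 37 genes in CPM over all mesenchymal cells (log axis), by role, with 1 point per library and exact 95% Poisson intervals. Bleomycin lies to the right of saline for 35 genes and to the left for Mcm4 and Pcna, and the longest line is that of Pclaf (4.80 and 40.5 CPM).

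The companion genes of the same pathways came from lists that held none of the 37. They too were higher more often in the mitotic than in the replication lists. Among all genes tested 7.45% were higher and 7.76% lower. Of the mitotic motor, spindle and cytokinesis genes 23 of 25 tested were higher and 0 lower, with ratios of 6.0 for Kif2c and 5.58 for Cit. Of the kinetochore and checkpoint genes 18 of 23 were higher and 1 lower, with 5.81 for the checkpoint kinase Ttk and 4.98 for Bub1b. Of the condensin and G2/M genes 19 of 26 were higher and 0 lower, among them the phosphatase Cdc25c (8.27) and the transcription factor Foxm1 (5.25). The replication lists held fewer: 12 of 38 DNA polymerase and fork genes were higher and 0 lower, led by Chaf1b (3.76) and Rad51ap1 (3.75), and 5 of 13 origin licensing genes were higher and 1 lower, with 5.40 for the licensing factor Cdt1 and 3.22 for its inhibitor Gmnn. Of the histone and tubulin genes 6 of 15 were higher and 0 lower, the linker histone Hist1h1d by 5.59. Among these 6 lists the median log2 ratio ran from 1.76 for the motors to 0.12 for origin licensing, and at the saline mixture of classes described next from 0.30 for the condensin list to -0.01 for origin licensing.

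The classes were present in very different numbers in the 2 libraries, so the same ratios were computed with the bleomycin classes weighted as in saline. At that mixture 29 of the 37 genes still had a ratio above 1, but only Pclaf (2.34) and Gins2 (2.14) were at least 2-fold apart, and the median ratio was 1.28. The summed S-phase genes had a ratio of 1.06 and the summed mitotic genes 1.27. Ccnb1 (0.564), Aurka (0.576), Cdc20 (0.734), Cenpa (0.875), Cenpf (0.959) and Lig1 (0.996) turned below 1, besides Mcm4 and Pcna. The 12 saline cells of the fibrotic fibroblast-like class count for little in this mixture, which leaves the class with the most dividing cells in bleomycin nearly out of it.

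In the bleomycin library the fibrotic fibroblast-like class held 54.0% of all mitotic UMIs and 49.1% of the S-phase UMIs, with 37.6% of the UMIs of all genes. The inflammatory fibroblast-like class held 35.8% of the mitotic UMIs with 42.4% of all UMIs. The fibrotic class had the highest level among the 6 classes for 34 of the 37 genes. The exceptions were Mcm4, highest in the alveolar class at 21.0 CPM (15.2 to 28.4), and Mcm6 and Pcna, highest in smooth muscle-like cells at 18.1 (14.6 to 22.1) and 94.7 CPM (86.5 to 103.5). The fibrotic class stood at 15.5 CPM (14.4 to 16.7) for Mcm4 and 16.2 (15.1 to 17.4) for Mcm6, which overlapped those highest values, and at 82.5 CPM for Pcna, whose upper bound of 85.1 did not.

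Levels of the summed mitotic genes in bleomycin were 967 CPM (959 to 976) in the fibrotic class, 569 (563 to 575) in the inflammatory class, 400.3 (384 to 417) in the peribronchial and smooth muscle class, 386 (369 to 403) in smooth muscle-like cells, 319 (309 to 329) in adventitial cells and 259 (237 to 282) in alveolar cells. The intervals of the peribronchial and the smooth muscle-like class overlapped, and the others did not. They are too narrow, because a few cells held many of the UMIs. After the thinning described below, 15 cells held 281 of the 363 mitotic UMIs of the peribronchial class. Counted as shares of cells, given below, the intervals of the peribronchial, smooth muscle-like, adventitial and alveolar classes overlapped each other. The S-phase sums spanned a narrower range, from 209 CPM in the peribronchial class to 381 in the fibrotic class. The fibrotic class is defined by its markers and was almost absent from saline, so its saline level, from 12 cells, was not compared.

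Within alveolar fibroblast-like cells 11 of 32 genes tested were higher and 0 lower, against 3.25% and 1.63% of all genes. They were Pclaf, Rrm2, Cdk1, Ccna2, Mki67, Top2a, Birc5, Tpx2, Nusap1, Prc1 and Ube2c. Top2a stood at 4.88 CPM (4.23 to 5.59) in saline and 17.1 (11.9 to 23.8) in bleomycin, and Ube2c at 3.41 (2.87 to 4.01) and 8.32 (4.85 to 13.3). The bleomycin values rest on 291 cells, and 17 UMIs for Ube2c. After the thinning to equal depth described below, 3 cells held 86 of the 133 mitotic UMIs of this class in bleomycin. The mitotic sum went from 164 to 259 CPM, a ratio of 1.58 (1.44 to 1.72). It was 0.816 when cell-cycle genes were kept in the clustering, which then drew a separate cluster of 39 saline and 491 bleomycin cells led by Ube2c, Birc5 and Top2a.

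Within adventitial fibroblast-like cells 3 of 37 genes were higher and 1 lower, against 4.3% and 5.58% of all genes, a share not far from the background. Pclaf stood at 7.01 CPM (5.51 to 8.78) in saline and 24.0 (21.4 to 26.8) in bleomycin, Gins2 at 3.08 and 7.83 CPM and Rrm2 at 3.27 and 6.67 CPM. Mcm4 was lower, at 33.5 (30.2 to 37.2) and 15.1 CPM (13.1 to 17.4), a ratio of 0.451. All 23 mitotic genes were neither, and their sum went from 252 to 319 CPM, a ratio of 1.27 (1.21 to 1.33), or 0.922 as a mean over cells of each cell's own CPM. Smooth muscle-like cells were as mixed. There Mcm2 (2.83) and Mcm5 (4.27) were higher and Hmmr (0.478) and Cdc20 (0.404) lower, against 4.78% and 3.01% of all genes, and the mitotic sum went from 517 to 386 CPM, a ratio of 0.747 (0.698 to 0.798). The share of these cells with at least 2 mitotic genes at equal depth went the other way, with 7 of 364 (1.92%, 0.777 to 3.92) in saline and 15 of 518 (2.90%, 1.63 to 4.73) in bleomycin, and 6 saline cells held 151 of the 187 mitotic UMIs of the thinned saline cells.

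The class that met the peribronchial fibroblast and smooth muscle markers had the widest contrast. Of the 37 genes 25 were higher and 0 lower, against 6.32% and 6.68% of all genes. The mitotic sum went from 73.5 CPM (60.9 to 87.9) in saline to 400.3 in bleomycin, a ratio of 5.45 (4.53 to 6.60), whereas the S-phase sum was 209 CPM in both. In saline, 12 of the 37 genes had 0 UMIs in this class, and 11 of these were higher in bleomycin. Set against a floor of 3 counts over the class (1.84 CPM), Ube2c, with 234 UMIs in bleomycin, was at least 22.1-fold higher. On the same floor Birc5 was at least 12.1-fold, Cdk1 at least 9.73-fold, Hmmr at least 7.28-fold and Pclaf at least 6.90-fold higher. The exact 95% intervals of these ratios began somewhat lower, at 17.8, 9.70, 7.78, 5.78 and 5.47. Pcna, the largest part of the S-phase sum, went from 117 CPM (101 to 135) to 74.1 (67.3 to 81.5). Of the 14 S-phase genes 5 were higher and 0 lower, although their sum was level. Pooled with smooth muscle-like cells, the class gave a mitotic ratio of 1.09, or 0.563 with cell-cycle genes kept in the clustering. The saline cells of this class were shallow, with a median of 3336.5 UMIs against 8883 in bleomycin, and the part of that depth in the contrast was not tested. At the equal depth described below, 15 of 584 bleomycin cells held 281 of the 363 mitotic UMIs. The intervals and bounds above treat UMIs as independent and are therefore too narrow. At least 2 mitotic genes were found in 3 of 389 saline cells (0.771%, 0.159 to 2.24) and 18 of 584 bleomycin cells (3.08%, 1.84 to 4.83). These 2 intervals overlapped.

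Inflammatory fibroblast-like cells went the other way. Of the 37 genes 0 were higher and 23 lower, against 2.91% and 3.88% of all genes. Ube2c stood at 145 CPM (125 to 168) in saline and 54.0 (52.1 to 56.0) in bleomycin, Top2a at 87.0 and 32.4 CPM, and Stmn1 at 432 and 199.6 CPM, while Tyms stood at 22.4 and 33.0 CPM. The mitotic sum went from 1376 to 569 CPM, a ratio of 0.413 (0.394 to 0.434). The saline side is 100 cells, among them 9 with at least 5 of the 37 genes, and the direction turned with the clustering: the ratio was 1.73 (1.53 to 1.95) at a finer clustering and 1.49 (1.20 to 1.88) with cell-cycle genes kept. These clusterings drew the class from other sets of cells. It held 56 saline and 1398 bleomycin cells in the finer one, and 82 and 3993 with cell-cycle genes kept.

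To compare shares of cells at equal depth, each cell was thinned at random to 2000 UMIs, which left out 143 saline and 137 bleomycin mesenchymal cells. At least 2 of the 37 genes were then found in 740 of 7977 saline cells (9.28%, exact interval 8.65 to 9.93) and in 1213 of 9393 bleomycin cells (12.9%, 12.2 to 13.6). Without thinning the shares were 44.7% and 59.0%. The epithelial-like cells, with medians of 5317 and 6371.5 UMIs, gave 12.5% (14 of 112) and 13.4% (39 of 292), so the mesenchymal shares at this limit were at or below those of another cell type in the same libraries. Pcna alone was detected in 17.8% of saline and 13.1% of bleomycin cells and Stmn1 in 12.8% and 13.9%, and a single redraw of the thinning moved the saline adventitial share from 6.55% to 8.26%.

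Counting the mitotic genes alone gave a clearer split. At least 2 of the 23 were found in 122 saline cells (1.53%, 1.27 to 1.82) and 650 bleomycin cells (6.92%, 6.41 to 7.45), with 1.79% and 4.45% of the epithelial-like cells. At least 2 of the 14 S-phase genes were found in 4.21% and 7.04%, with 7.14% and 5.48% of the epithelial-like cells, so the S-phase shares stood near those of the epithelial-like cells. By class in bleomycin, the mitotic share was 13.7% (12.4 to 15.03, 366 of 2678 cells) in the fibrotic class and 4.98% (4.33 to 5.68) in the inflammatory class. It was 3.35% in adventitial, 3.08% in peribronchial and smooth muscle, 2.90% in smooth muscle-like and 1.79% in alveolar cells, and these 4 intervals overlapped each other and, for the first 3, that of the inflammatory class. In saline it was 1.35% (1.07 to 1.68) in the alveolar class, which held most cells, 1.42% in adventitial cells and 11 of 97 cells (11.3%, 5.80 to 19.4) in the inflammatory class. At the saline mixture of classes the bleomycin share was 2.23%.

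**Figure D2:**
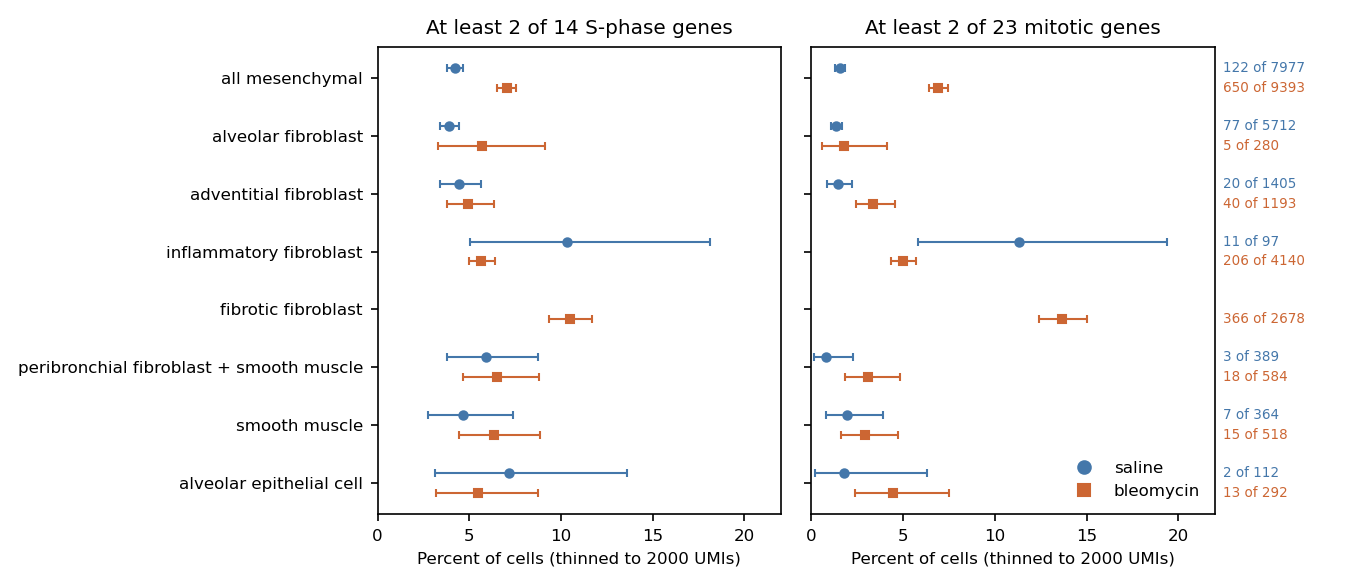
Percent of cells with at least 2 S-phase genes (left) and at least 2 mitotic genes (right) at 2000 UMIs per cell, by class and library, with exact 95% intervals. The numbers on the right count the cells behind the mitotic shares. The 12 saline cells of the fibrotic class are not drawn, and the highest share with a narrow interval is that of the fibrotic class in bleomycin (13.7%).

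The number of the 37 genes found per thinned cell showed where the libraries parted. Exactly 2 genes were found in 600 saline and 512 bleomycin cells, and 0 genes in 57.8% and 61.9% of cells, so cells with 1 or 2 genes made up more of the saline library. From 3 to 20 genes the share was higher in bleomycin at every number, while the fullest saline cell had 21. A limit of 5 genes, chosen after these counts had been seen, was passed by 51 saline cells (0.639%, 0.476 to 0.840) and 507 bleomycin cells (5.40%, 4.95 to 5.87). Among epithelial-like cells 2 of 112 (1.79%) and 8 of 292 (2.74%) passed it. Leaving out each library's top 5% of doublet scores gave mesenchymal shares of 0.678% and 4.98%.

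**Figure D3:**
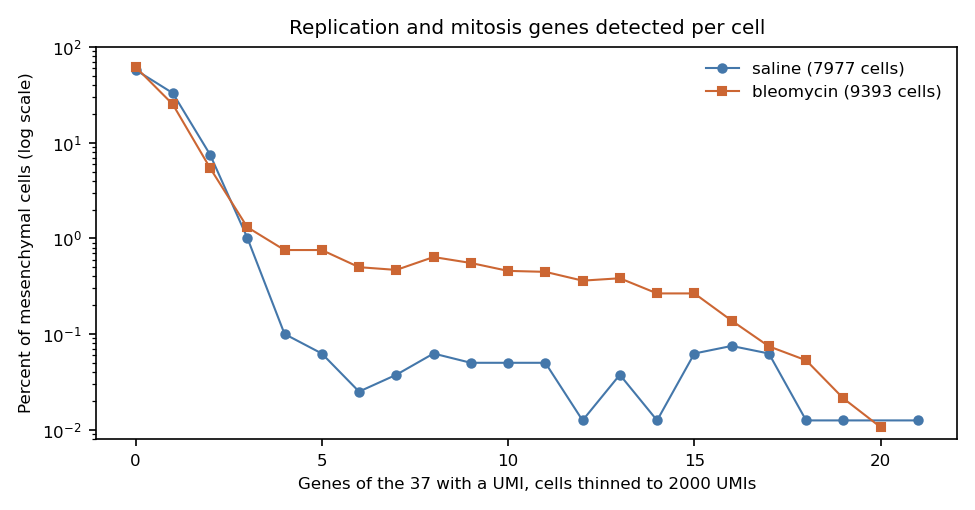
Percent of mesenchymal cells (log axis) with each number of the 37 genes detected at 2000 UMIs, for saline (7977 cells) and bleomycin (9393 cells). The lines run close together up to 3 genes, and from 4 to 20 genes the bleomycin points lie above the saline points.

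The bleomycin cells with at least 5 of the genes came from every class. Of the 507, 279 (55.0%) were fibrotic, 162 (32.0%) inflammatory, 36 adventitial, 15 peribronchial and smooth muscle, 12 smooth muscle-like and 3 alveolar. Within the classes this was 10.4% (9.29 to 11.6) of fibrotic, 3.91% (3.34 to 4.55) of inflammatory and 3.02% (2.12 to 4.15) of adventitial cells. The fibrotic share was 10.4% again when 876 genes that went with the 5-gene cells were also left out of the clustering. With cell-cycle genes kept it was 1.34%, since the separate cluster of dividing cells then held most of them. In saline 21 of the 51 cells were adventitial (1.49% of that class) and 11 alveolar (0.193% of that class, 0.0962 to 0.344). In the peribronchial and smooth muscle class 0 of 389 saline cells passed, which allows up to 0.771% by 3 counts (exact upper limit 0.944%). The 5-gene cells were also the deepest, with medians of 17646 and 21437 UMIs against 6812 and 11723 in the other cells. Of them 0% in saline and 11.8% in bleomycin were among the top 5% of doublet scores of their library, against 3.89% and 4.29% of other cells.

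The 37 genes differed in how far they kept to such cells. For each gene the UMIs of thinned cells were divided by whether the cell also had at least 2 of the other 36 genes. In bleomycin a median of 91.8% of the UMIs of a mitotic gene lay in such cells, and 49.6% for an S-phase gene, with 79.1% and 19.7% in saline. Hmmr reached 98.6%, Ube2c 96.8% and the S-phase gene Pclaf 95.8% (94.1% in saline). Pcna was at the other end with 25.7% in bleomycin and 6.79% in saline, and Mcm4 had 31.8% and 10%. In bleomycin Rrm1 (43.4%), Tyms (46.4%), Mcm6 (47.8%), Mcm7 (48.4%) and Lig1 (48.8%) came next. All of these S-phase genes were thus found mainly in cells with few other genes of the list. Pcna and Mcm4 were also the 2 genes with a ratio below 1. Some mitotic genes were low too in saline: Ccnb2 (20.4%), Cenpa (25.6%), Stmn1 (26.5%) and Aurka (27.5%). Of the 23 mitotic genes 11 lay above 80% in saline and 20 in bleomycin. Without thinning, Stmn1 and Pcna held 25.3% and 23.4% of all UMIs of the list in saline mesenchymal cells and 20.8% and 8.47% in bleomycin.

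**Figure D4:**
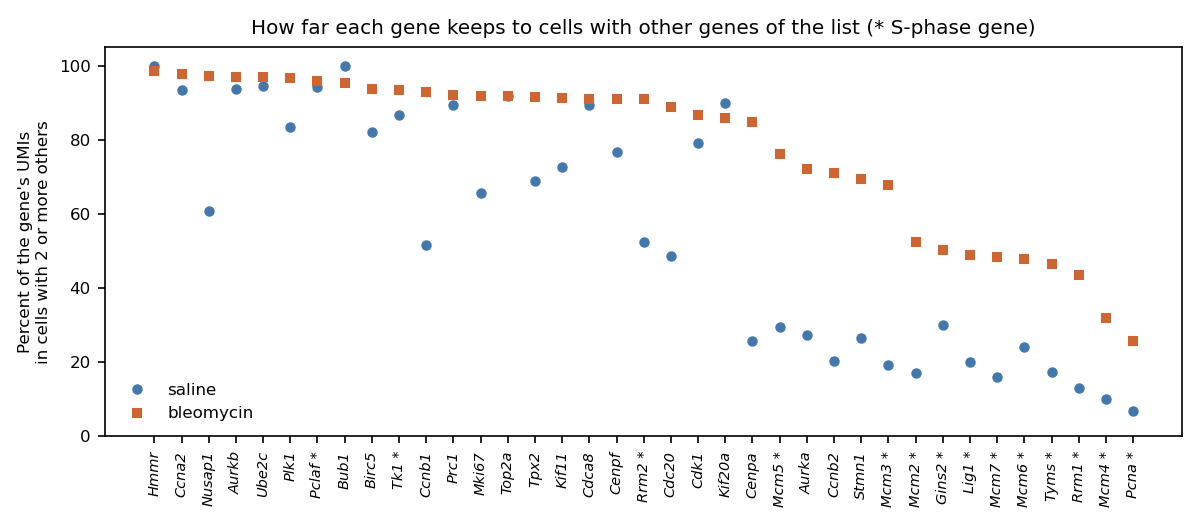
Percent of each gene's UMIs that lay in cells with at least 2 of the other 36 genes, at 2000 UMIs per cell, for saline and bleomycin, in the order of the bleomycin values. Most mitotic genes lie above 80% in bleomycin, and 11 of the 14 S-phase genes (asterisks) lie below it, down to Pcna at 25.7%.

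In the 5-gene cells both programmes were usually present together. Of the 51 saline cells 62.7%, and of the 507 bleomycin cells 63.9%, had at least 2 S-phase and at least 2 mitotic genes. Cells with 2 or more mitotic but fewer S-phase genes made up 31.4% and 31.6%, and the reverse 5.88% and 4.54%. This split was close in the 2 libraries, which held very different numbers of such cells. The limit of 5 genes that chose the cells also constrains the split, and the saline side is 51 cells, so it does not show that their make-up was alike. Because there are 23 mitotic and 14 S-phase genes, a cell passes a count of mitotic genes more easily, and the split is not a share of phases. Among all cells with at least 2 genes, the cells with 1 S-phase and 1 mitotic gene made up 43.0% in saline and 20.2% in bleomycin, and those with 2 or more of both made up 4.86% and 28.3%.

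Stmn1 was found in 94.1% of the 5-gene cells in saline and 88.6% in bleomycin, and in 12.3% and 9.66% of the other cells. Pclaf was found in 41.2% (27.6 to 55.8) and 53.1% (48.6 to 57.5), and in 0.0379% and 0.461% of the other cells. Ube2c was found in 62.7% and 52.3%, Birc5 in 60.8% and 50.5%, and Top2a in 66.7% (52.1 to 79.2) and 49.5% (45.1 to 54.0). Hmmr was found in 43.1% of the 5-gene cells in saline and in 0 of the 7926 others, which allows up to 0.0379% of cells with a UMI at this depth by 3 counts (exact upper limit 0.0465%). Mki67 was found in 49.0% and 38.1%. Each gene counts towards the limit that chose these cells, which raises its own value, so the values only describe the chosen cells.

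**Figure D5:**
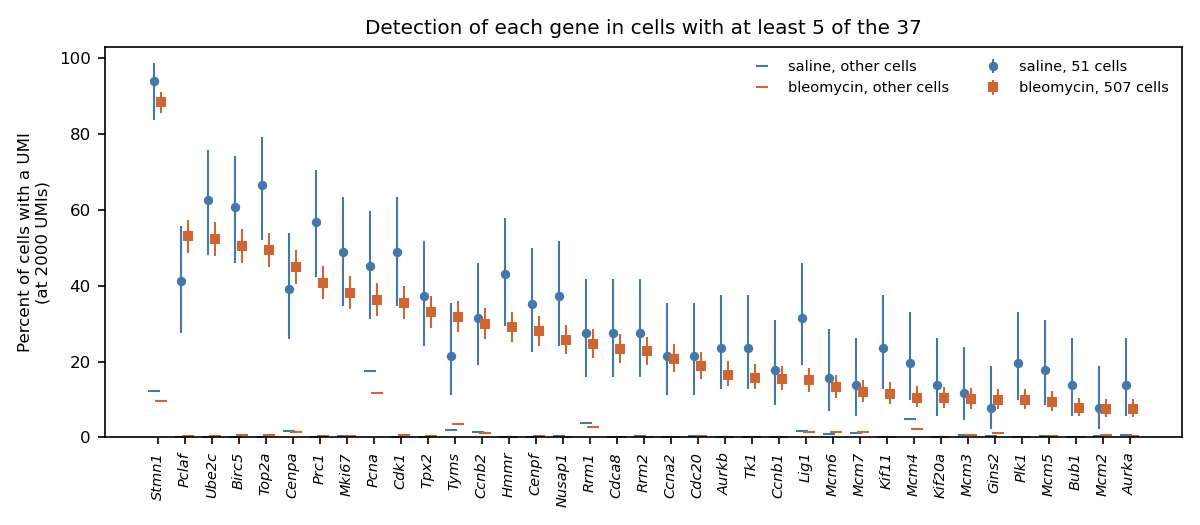
Percent of cells with a UMI of each gene, at 2000 UMIs per cell, among cells with at least 5 of the 37 genes (points with exact 95% intervals) and among the other cells (dashes), for saline (51 and 7926 cells) and bleomycin (507 and 8886 cells). Stmn1 and Pcna are the 2 genes whose dashes stand well above 0 (9.66% and 11.8% in bleomycin).

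The regulators that decide entry into S phase were taken from the companion lists. Of 14 G1 cyclin, kinase and E2F genes tested 4 were higher and 0 lower, and of 21 CDK inhibitor and pocket protein genes 4 were higher and 1 lower. The background among all genes tested was 7.45% higher and 7.76% lower. Over all mesenchymal cells Ccnd1 (cyclin D1) stood at 16.4 CPM in saline and 49.7 in bleomycin, a ratio of 3.04 (2.84 to 3.25), and its partner kinase Cdk6 had a ratio of 2.38. At the saline mixture of classes these were 0.895 and 1.55. Ccnd2 (cyclin D2), at 116 and 148 CPM, Cdkn1a (p21), at 670 and 604 CPM, and Cdkn1b (p27), with a ratio of 1.24, did not meet the rule. Cdkn1c (p57) was lower, at 77.9 and 20.9 CPM, a ratio of 0.269 (0.256 to 0.282), but at the saline mixture the ratio was 0.872. Cdkn2a, which encodes the inhibitor p16 and the p53 activator p19Arf, stood at 0.237 and 11.4 CPM, a ratio of 47.9 (28.4 to 87.8), from 14 UMIs in saline, and of 6.02 at the saline mixture. Its level was 27.4 CPM in the fibrotic class of bleomycin, which was also the class with the most cells carrying the mitotic genes.

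Compared within a class, the 5-gene cells differed from the rest in these regulators. Ccnd2 was lower in them, at 56.8 against 201 CPM in the fibrotic class of bleomycin (a ratio of 0.282, 0.255 to 0.311), and at ratios of 0.397 in the inflammatory and 0.358 in the adventitial class, with 0.412 in adventitial cells of saline. Cdkn1a was lower in the fibrotic class, at 242 against 509 CPM (0.475, 0.452 to 0.499), and less so in the inflammatory class (0.879). Cdkn2a stood at 30.2 against 27.0 CPM in the fibrotic class (1.12, 0.964 to 1.29, an interval that holds 1), but at 13.1 against 0.755 CPM in the inflammatory class, a ratio of 17.4 (11.0 to 27.4). In the fibrotic class the 5-gene cells had less of the class's own markers Spp1 (0.659) and Cthrc1 (0.771) and of Col1a1 (0.811), and more of the contractile gene Acta2 (1.74). In the inflammatory class they had more Cthrc1 (3.24) and Acta2 (1.83) and less Inmt (0.327). The cells were chosen on the 37 genes and their depth was higher, so these are descriptions of the chosen cells. In bleomycin 14.8% of the inflammatory 5-gene cells had top doublet scores, against 2.94% of other inflammatory cells. In the fibrotic class this was 9.68% against 5.21%. With cell-cycle genes kept in the clustering, the separate cluster of dividing cells also met the fibrotic list. The part of doublets or of class assignment in these contrasts was not tested.

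Outside the lists, 2799 genes could be compared between bleomycin cells with at least 2 of the 37 genes and other cells of the same classes, and 45 were at least 2-fold higher and 4 at least 2-fold lower in the former. Cdkn3, a phosphatase that acts on Cdk1, stood at 68.8 against 1.60 CPM, the formin Diaph3 at 54.1 against 1.56 CPM and the noncoding RNA Lockd at 66.3 against 3.45 CPM. Tmpo (lamina-associated polypeptide), Selenoh, Dnajc9, Rangap1, Ccdc34, Topbp1 and the histone methyltransferase Ezh2 had ratios from 8.73 to 4.52. All 45 had a ratio above 1 in saline too. Iglc1 and Ccl5 were also high in bleomycin, but 99.8% and 96.9% of their UMIs in these cells came from 1 cell each. On the low side, 2 of the 4 genes were below 1 in saline too, Actc1 (0.452) and Ogn, at 238 against 480 CPM (0.496). The other two, named after their values were seen, were the immunoglobulin gene Igkc (0.0249) and Fmod (0.492). The next genes below 1 in both libraries were Ephx1 (0.529), Igfbp2 (0.535), Tcn2 (0.537) and Gas6 (0.540).

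Markers of other cell types were summed over the same cells. The 9 alveolar epithelial markers stood at 171 CPM in saline cells with at least 2 of the genes and 89.2 in the others, and at 77.0 and 39.1 CPM in bleomycin, and their part in the shares of cells was not tested. The summed 6 B and plasma cell markers stood at 31.1 CPM in saline and 442 in bleomycin over all mesenchymal cells, but in bleomycin at 53.6 CPM in cells with at least 2 of the genes and 524 in the others. The 10 macrophage markers summed to 40.7 and 45.2 CPM, the 6 endothelial markers to 3.61 and 6.66 CPM, the 6 T and NK cell markers to 0.831 and 2.48 CPM and the 5 neutrophil markers to 0.458 and 4.66 CPM.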

How the data were processed

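The deposited files hold raw UMI counts per gene and cell barcode, which the authors made with Cell Ranger 6.1.2 on mm10, per the submitters' processing notes. Counts were used as deposited. Cells with at least 500 genes and at most 10% mitochondrial UMIs were kept, and doublets called by Scrublet (scanpy 1.11.5) were left out. Counts per 10000 were log transformed, and 2000 variable genes without the 37 genes and the companion lists gave 30 principal components, 15 neighbours and Leiden clusters at resolution 0.5. Clusters were named from marker lists, with at least 3 markers higher. Nothing says that a library came from 1 or several mice, and intervals cover counting error only. Shares have exact Clopper-Pearson intervals, ratios exact conditional binomial ones and levels exact Poisson ones, all at 95%. On simulated counts for all cells (12559 genes tested of 32285) the 2-fold rule called 100% of 100 genes set 3-fold apart, 0% of 100 set 1.5-fold apart and 0 unchanged genes. Those counts were drawn independently at the depth of whole libraries. They held no UMIs clumped in a few cells, no small classes and no differences between libraries of 1 treatment, so they give no rate of false calls for these data. UMIs in a cell of 3' data can come from free RNA, and near-identical gene copies can share reads. The genes, the lists and the marker sets were chosen with earlier results of these data known. All 37 genes could be named. Of each companion list up to 4 genes with the largest ratios were eligible, together with Ccnd1, Ccnd2, Cdkn1a, Cdkn1b, Cdkn1c and Cdkn2a. Of the cells with at least 2 genes, the 12 highest and 6 lowest genes outside the lists were named. Spp1, Cthrc1, Col1a1, Acta2 and Inmt were set beside the 5-gene cells after that limit had been chosen. Gene coordinates are those of the GENCODE annotation of GRCm38. Promoters are those of the RefSeq table, which listed 30 of the 37 genes.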

Additional observations from a re-analysis of the deposited data

Results flagged for a closer look

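The classes differed in the direction of the summed mitotic genes between bleomycin and saline. The ratio was 5.45 in the peribronchial and smooth muscle class, 1.58 in alveolar and 1.27 in adventitial fibroblast-like cells, but 0.747 in smooth muscle-like and 0.413 in inflammatory fibroblast-like cells. With 1 library of each treatment the difference between classes was not tested, and the directions were not stable: the inflammatory ratio turned above 1 under 2 other clusterings, the alveolar ratio was 0.816 with cell-cycle genes kept and the adventitial ratio 0.922 as a mean over cells.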

How the results depend on the processing

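No paired analysis was possible because each treatment had 1 library. The count of 29 higher genes was 28 to 33 under 8 alternatives, 19 where the higher of both levels had to reach 10 CPM, and 2 at the saline mixture of classes, and 1 gene (Mcm4) was lower at 1.5-fold. Scaling by the median of ratios divided every bleomycin level by 0.958 (-0.06 on the log2 scale), which raised every ratio slightly. Shares of cells with at least 2 genes (9.28% saline, 12.9% bleomycin) were 3.30% and 8.41% at 1000 UMIs, 24.1% and 23.6% at 4000 UMIs, where the order turned, 44.7% and 59.0% without thinning, 42.2% and 38.1% for at least 1 gene, where it turned as well, 1.76% and 7.46% for at least 3, 0.639% and 5.40% for at least 5, 1.53% and 6.92% for mitotic and 4.21% and 7.04% for S-phase genes alone, 5.92% and 10.6% without Stmn1, and 2.56% and 8.63% without Stmn1 and Pcna. The limit of 5 genes, the last of these gene sets and the clustering without genes that go with the 37 were chosen after seeing the data. Summed ratios over all mesenchymal cells (1.42 S phase, 2.95 mitotic) were 1.22 to 1.43 and 2.65 to 2.90 under 5 alternatives, and 1.06 and 1.27 at the saline mixture. Directions turned for the mitotic ratio of inflammatory cells (1.73 at a finer clustering, 1.49 with cell-cycle genes kept), of alveolar cells (0.816) and of the pooled peribronchial and smooth muscle cells (0.563), both with cell-cycle genes kept, and of adventitial cells (0.922 as a mean over cells). At the saline mixture they turned for Ccnb1 (0.564), Aurka (0.576), Cdc20 (0.734), Cenpa (0.875), Cenpf (0.959) and Lig1 (0.996). The cause was not tested. Low-level genes in small classes are limited by depth: 1 UMI in the 1632736 saline UMIs of the peribronchial and smooth muscle class is 0.612 CPM.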
